A study of Mus musculus with 6 samples.

Results

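The genes described here encode the protein subunits of the cytosolic ribosome, measured by RNA sequencing of mouse liver. They were chosen by symbol alone: Rpl (large subunit) or Rps (small subunit) with a number, or Rpsa, Rplp0, Rplp1 or Rplp2, without symbols ending in -ps and without the Rps6k kinases. By this rule 90 of the 55450 genes in the table were members, 54 of the large and 36 of the small subunit. The annotation lists 84 of them as protein-coding and 6 (Rpl32l, Rpl6l, Rps12l1, Rps3a2, Rps3a3 and Rps4l) as processed pseudogenes, which are copies of spliced messages.

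Each group held 3 mice, labelled C57BL/J, with 1 library per mouse. All 6 mice received AAV8 Cre, a virus that delivers the Cre recombinase, at 6 weeks of age, and their left liver lobes were collected at 10 weeks. The knockout (KO) mice carried LKB1 fl/fl alleles, which Cre can remove, and the wild-type (WT) mice had normal alleles, so virus and Cre were common to both groups. LKB1, encoded by Stk11, is a kinase that activates AMPK, which in turn restrains growth signalling through mTOR. The promoter that drove Cre is not given in the labels, and liver cells other than hepatocytes may have kept the gene.

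A cytosolic ribosome joins a small subunit, which reads the message, to a large subunit, which forms the peptide bond. Most of its proteins are needed in equal numbers, and their messages are among the most abundant in a cell. Many of these messages begin with a run of pyrimidines, the TOP motif, through which mTOR controls how fast they are translated. In liver this production follows feeding and growth.

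Library totals lay between 47659122 and 56147667 counts. Stk11, the deleted gene, stood at 22.2, 14.4 and 11.4 CPM (read counts relative to a scaled library size) in KO 1, 2 and 3 and at 66.1, 64.2 and 69.7 CPM in WT 1, 2 and 3. It fell by 2.06 on the log2 scale (SE 0.25, edgeR adjusted p = 0.0167), and leaving out KO 2, KO 3, WT 2 or WT 3 raised that adjusted p to between 0.0607 and 0.104. Replicate 1 of each group stood apart from the rest: it had 42472 (KO) and 29243 (WT) Xist counts and at most 6 counts of Y-linked genes, against at most 16 Xist counts and at least 6146 Y-linked counts in the others. Of 8 hepatocyte markers all were detected, and their summed level was 29220 to 76240 CPM in KO and 85900 to 123600 CPM in WT. Tat was the only one of them that passed the test, higher in KO (log2 fold change 1.86, SE 0.31, adjusted p = 0.0344).

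Ribosomal protein transcripts made up a larger part of the KO libraries. Their summed counts were 1.42%, 1.76% and 1.498% of all counts in KO 1, 2 and 3, and 1.17%, 1.11% and 1.12% in WT 1, 2 and 3. The groups did not overlap, and the mean was 1.56% ± 0.178 (SD, n = 3) in KO against 1.13% ± 0.0327 (SD, n = 3) in WT, a ratio of 1.38. Both subunits shared in this: the large-subunit share was 1.36 times and the small-subunit share 1.40 times that of WT. The ratio of large-subunit to small-subunit counts was 1.44 ± 0.0193 in KO and 1.48 ± 0.0102 in WT (SD, n = 3 each).

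The share of counts in the rest of the library moved too. The 10 most counted genes held 14.1% ± 1.88 of the counts in KO and 18.1% ± 1.68 in WT, and mitochondrially encoded genes held 8.83% ± 1.295 and 6.64% ± 0.436 (SD, n = 3 each). Outside the 10 most counted genes, the members' share in KO exceeded that in WT by 0.43 percentage points, and outside the mitochondrially encoded genes by 0.50 points. Leaving genes out raises both shares, and for the 10 most counted genes it raises the WT share by a larger factor. These differences in points therefore do not show that the ratio of 1.38 was kept. In tissue RNA, fewer cells of a type and less RNA per cell cannot be told apart. The part of cell composition in the members' values was not tested.

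Of the 90 members, 86 had enough counts to be tested, among 14539 genes tested in all. Single genes were tested by the quasi-likelihood method of edgeR and called at an adjusted p below 0.05 over all genes tested. Rpl13a and Rpl36 rose in KO, so 2 of 86 members were called higher, where 2.15% of all genes tested were called higher. No member was called lower, where 1.22% of all genes were. At an unadjusted p below 0.05, 61 members were higher and 1, Rps12l1, was lower, where 14.6% and 11.7% of all genes were. DESeq2 called 41 members higher and 0 lower, where it called 8.74% and 7.01% of all genes.

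The shift was small and shared by nearly the whole family. The log2 fold change was above 0 in 85 of 86 members, as it was in 51% of all genes tested, and it lay from 0.25 to 0.75 in 74 members, as in 19.7% of all genes. All 3 KO libraries lay above all 3 WT libraries in 80 members, where 16.9% of all genes did so, and no member had the opposite order, which 15.5% of all genes had. Over the 86 members the median log2 fold change was 0.42, or 1.34-fold, against 0.01 for all genes tested. It was 0.41 for the large subunit (50 tested) and 0.46 for the small subunit (36 tested).

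**Figure D1:**
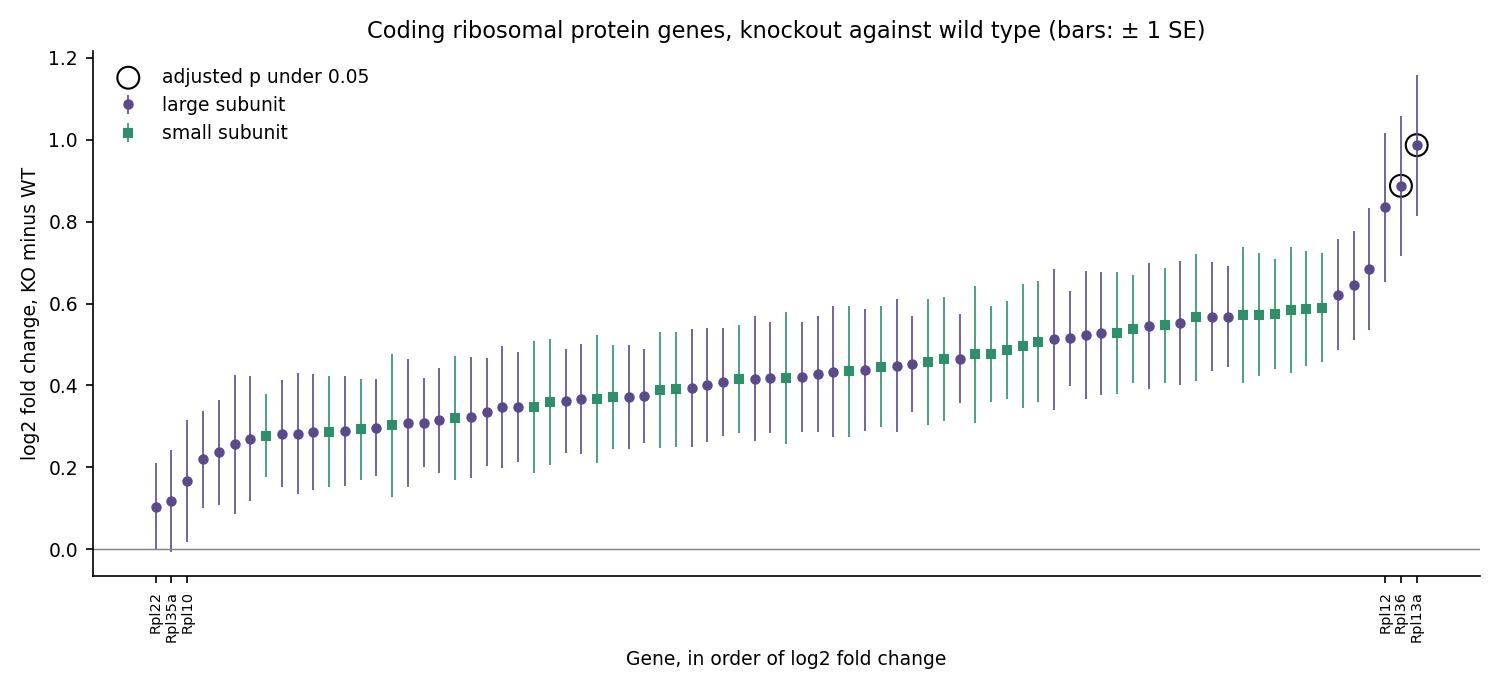
Log2 fold change (KO minus WT, vertical axis) of the 81 tested coding ribosomal protein genes, in order of size along the horizontal axis (6 genes named), with bars of 1 SE on each side. All 81 points lie above 0, between 0.10 (Rpl22) and 0.99 (Rpl13a), and the circled genes Rpl36 and Rpl13a passed the test.

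The 4 members that were not tested had almost no counts in liver. Rpl10l, a copy of Rpl10 known from the testis, was at 0 counts in all 6 libraries. Rpl3l, the copy of Rpl3 known from heart and skeletal muscle, was at 0.0343, 0.0180 and 0.0212 CPM in KO 1, 2 and 3 and at 0 in WT, which is near the value of a single read. Rpl39l reached 0.107 CPM in WT 3, and the pseudogene Rpl32l reached 0.0515 CPM in KO 1.

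Rpl13a had the largest log2 fold change of any coding member. It encodes a large-subunit protein that can also leave the ribosome to repress translation of inflammatory messages. The gene (ENSMUSG00000074129.14) lies on the minus strand of chromosome 7, from 45125558 to 45128761 in GRCm38, and its introns hold Snord32a, Snord33, Snord34 and Snord35a, small nucleolar RNAs that guide rRNA methylation. Its level was 303, 398 and 403 CPM in KO 1, 2 and 3 and 194, 187 and 176 CPM in WT 1, 2 and 3. Every KO library lay above every WT library, and KO 1 was the lowest of the 3. On the log2 scale the difference was 0.99 (SE 0.17, edgeR adjusted p = 0.0381), a 1.98-fold higher level. Another gene on the same strand, Gm45713, overlaps it, and the use of strand in counting is not given in the sources used here.

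Rpl36, also of the large subunit, was the other member called. It (ENSMUSG00000057863.6) lies on the plus strand of chromosome 17, from 56613416 to 56614243 in GRCm38. Its level was 87.0, 130.5 and 115 CPM in KO 1, 2 and 3 and 62.5, 58.7 and 58.7 CPM in WT 1, 2 and 3. The groups did not overlap, and KO 1 again lay between the WT libraries and the other KO libraries. On the log2 scale the difference was 0.89 (SE 0.17, edgeR adjusted p = 0.0455). The calls of Rpl13a and Rpl36 were lost when any library other than KO 1 was left out, with adjusted p up to 0.204 and 0.217.

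The next members in size did not pass the threshold in the fit with the group alone. Rpl12, which forms the base of the ribosomal stalk, stood at 86.7, 132.5 and 115 CPM in KO 1, 2 and 3 and at 58.4, 60.8 and 68.3 CPM in WT 1, 2 and 3, without overlap (log2 fold change 0.83, SE 0.18, adjusted p = 0.0566). With replicate 1 or not as a term in the fit, its adjusted p was 0.031, and 16 members were called higher, where 5.36% of all genes were. Rpl35 (adjusted p = 0.0341), Rpl39 (0.0387), Rpl5 (0.0388), Rpl22l1 (0.044) and Rpl36a (0.044) also passed there. Lrsam1 overlaps Rpl12 on the other strand. Rpl32, Rpl10a and Rpl35, all of the large subunit, had log2 fold changes of 0.68, 0.64 and 0.62, with adjusted p of 0.0566, 0.052 and 0.0566. In the small subunit, Rps12 had a log2 fold change of 0.59 (adjusted p = 0.0683). In all, 8 of the 81 tested coding members were at least 1.5-fold higher in KO. Over all genes tested, the 86th percentile of the log2 fold change was 0.59, which is near that fold. The highest adjusted p among the 81 tested coding members was 0.578 (Rpl35a).

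At the other end, 3 large-subunit genes were nearly level between the groups. Rpl22, a protein that is dispensable for translation in most cells and needed in T-cell development, stood at 73.5, 74.2 and 69.6 CPM in KO 1, 2 and 3 and at 67.9, 69.1 and 65.1 CPM in WT 1, 2 and 3 (log2 fold change 0.10, SE 0.11, adjusted p = 0.562). Rpl35a, a gene mutated in Diamond-Blackfan anaemia, stood at 113, 112 and 127 CPM in KO and at 103, 112 and 109.8 CPM in WT (0.12, SE 0.12, adjusted p = 0.578). Rpl10, which joins the large subunit late in its maturation, stood at 482, 462 and 478 CPM in KO and at 449, 407 and 409.9 CPM in WT (0.17, SE 0.15, adjusted p = 0.509). In each of these genes the lowest KO library was above the highest WT library, but by margins far smaller than in Rpl13a.

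**Figure D2:**
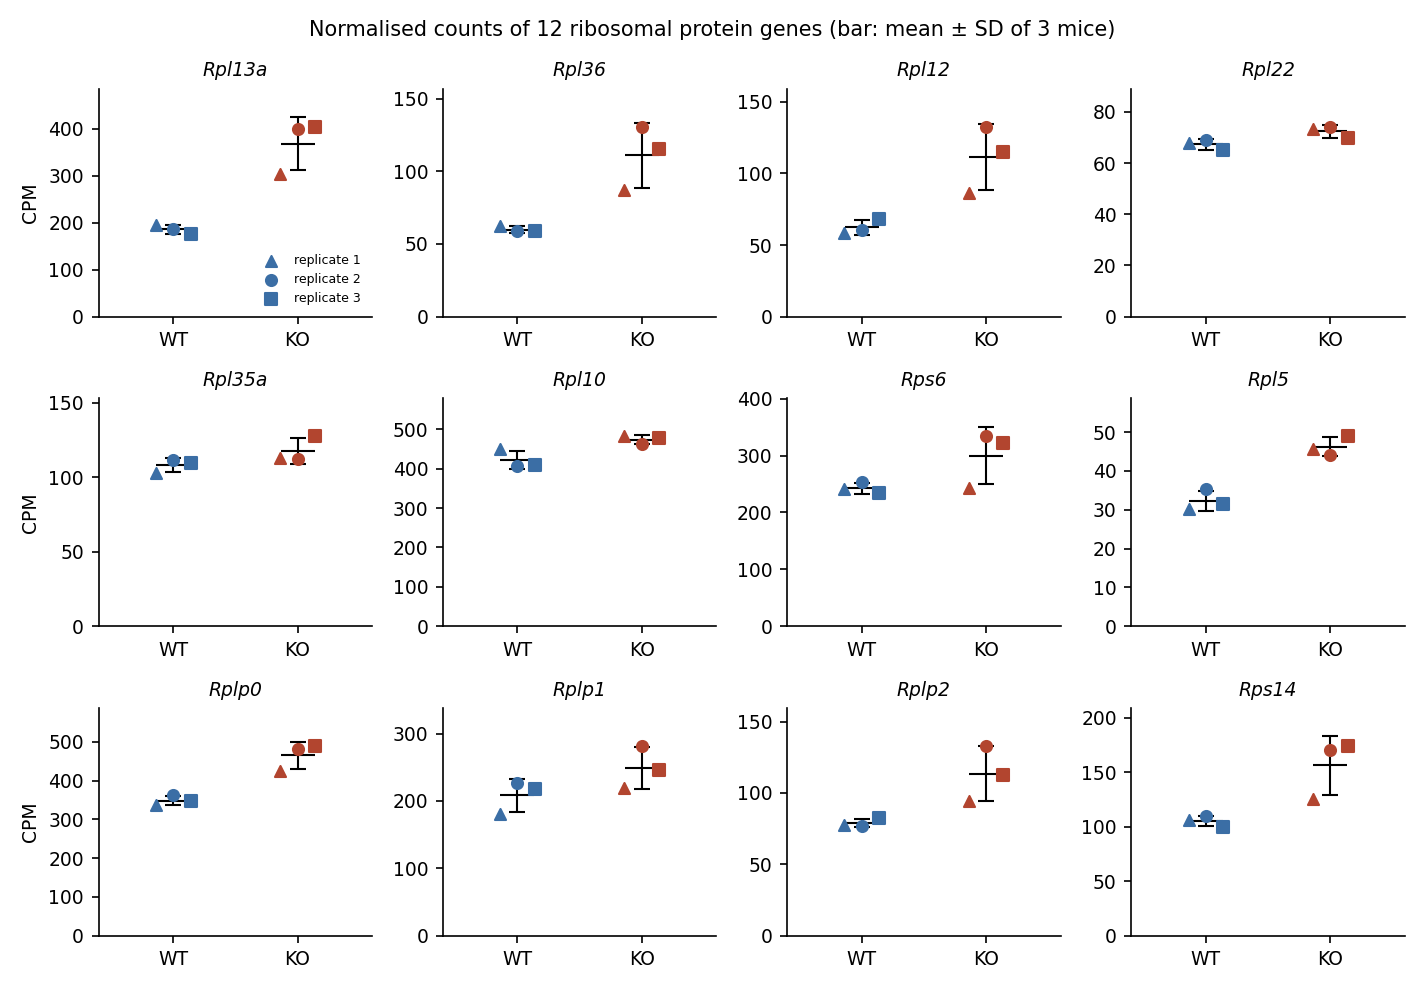
Level in CPM (vertical axes, from 0) of 12 members in each library, with triangles for replicate 1, circles for replicate 2, squares for replicate 3, and a bar for the mean and SD of 3 mice. The KO libraries lie well above WT in Rpl13a, Rpl36 and Rpl12, just above it in Rpl22, Rpl35a and Rpl10, and overlap it in Rps6 and Rplp1.

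The stalk proteins, which recruit the elongation factors to the ribosome, had unequal values. Rplp0 stood at 425, 481 and 489.5 CPM in KO 1, 2 and 3 and at 337, 362 and 347 CPM in WT 1, 2 and 3 (log2 fold change 0.42, SE 0.15, adjusted p = 0.147). Rplp2 stood at 94.4, 133 and 113 CPM in KO and at 77.6, 76.8 and 82.1 CPM in WT (0.52, SE 0.16, adjusted p = 0.099). Rplp1 stood at 219, 282 and 246 CPM in KO and at 181, 226 and 217 CPM in WT (0.26, SE 0.17, adjusted p = 0.373). Rplp0 and Rplp2 did not overlap between groups, and Rplp1 did, because KO 1 lay below WT 2.

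Rps6, whose protein is phosphorylated by the S6 kinases downstream of mTOR, was the other coding member whose groups overlapped. It stood at 242, 334 and 323 CPM in KO 1, 2 and 3 and at 241, 253 and 234 CPM in WT 1, 2 and 3. KO 1 was at the level of WT, and KO 2 and KO 3 were above it. The log2 fold change was 0.30 (SE 0.17, adjusted p = 0.313).

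Rpl5 and Rpl11, which carry the smallest rRNA into the large subunit and bind the p53 regulator MDM2 when assembly fails, did not pass the test. Rpl5 stood at 45.5, 44.2 and 48.9 CPM in KO 1, 2 and 3 and at 30.2, 35.3 and 31.5 CPM in WT 1, 2 and 3 (log2 fold change 0.51, SE 0.12, adjusted p = 0.0605). Rpl11 stood at 147, 164 and 177 CPM in KO and at 117, 126 and 122 CPM in WT (0.42, SE 0.14, adjusted p = 0.117). In both genes the groups did not overlap. Rpl3, which lies near the catalytic centre, had a mean of 385 ± 50.7 CPM in KO and 269.8 ± 24.2 CPM in WT (SD, n = 3 each; log2 fold change 0.51, SE 0.17, adjusted p = 0.125).

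In the small subunit, Rpsa, also known as a laminin-binding protein, had a mean of 524 ± 64.7 CPM in KO and 377 ± 14.8 CPM in WT (SD, n = 3 each; log2 fold change 0.48, adjusted p = 0.137). Rps14, whose loss of 1 copy causes anaemia in a myelodysplastic syndrome, had a mean of 156 ± 27.3 CPM in KO and 105 ± 4.86 CPM in WT (0.57, adjusted p = 0.0961). Neither gene overlapped between groups, and KO 1 was the lowest KO library in both.

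Several members have a close relative in the genome, and none of those relatives passed the test. Rpl22l1, the relative of the nearly level Rpl22, stood at 32.5, 32.02 and 35.04 CPM in KO 1, 2 and 3 and at 18.2, 25.6 and 24.1 CPM in WT 1, 2 and 3 (log2 fold change 0.55, SE 0.15, adjusted p = 0.0863). Its log2 fold change exceeded that of Rpl22, a difference that was not tested. Rpl36a and Rpl36al had log2 fold changes of 0.45 and 0.32, with adjusted p of 0.0767 and 0.219. Those of Rpl7 and Rpl7l1 were 0.29 and 0.31, with adjusted p of 0.25 and 0.137. Rps27 and Rps27l, the latter induced by p53, were at 0.29 and 0.42, with adjusted p of 0.191 and 0.111. Rpl39, a short protein at the exit tunnel, was at 0.47 with an adjusted p of 0.0647, and Rps4x, the X-linked small-subunit gene, was at 0.29 with an adjusted p of 0.23.

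The members annotated as pseudogenes had low levels, and none of the 5 tested passed the test. Rps12l1 was the only tested member whose log2 fold change was below 0 (-0.99, SE 0.41, adjusted p = 0.184): it stood at 1.85, 3.69 and 6.01 CPM in KO 1, 2 and 3 and at 8.50, 8.43 and 5.94 CPM in WT 1, 2 and 3. Its groups overlapped, since KO 3 exceeded WT 3, and 2 genes on the other strand, Nipa1 and Gm44510, overlap it. Rps4l stood at 9.64, 17.4 and 11.3 CPM in KO and at 5.19, 9.41 and 11.7 CPM in WT, with overlap (0.55, adjusted p = 0.349). Rps3a2 had a mean of 2.42 ± 0.618 CPM in KO and 2.19 ± 0.293 CPM in WT (SD, n = 3 each; 0.14, adjusted p = 0.772). Rps3a3 and Rpl6l were below 1 CPM in every library, with log2 fold changes of 1.04 and 0.87 and adjusted p of 0.174 and 0.331.

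Levels were set per kilobase of coding sequence for the 81 tested coding members. Reads fall on the whole transcript, so this scale places genes with a short coding part, such as Rpl41, too high. The median was 319.5 CPM per kilobase. Rpl41, the shortest ribosomal protein, was at 1347 CPM per kilobase, followed by Rpl10 at 698, Rplp1 at 668, Rps29 at 584 and Rps2 at 516. The lowest were Rpl5 at 44.1, Rpl22l1 at 76.2, Rpl7l1 at 85.9, Rpl27 at 158 and Rpl35 at 160. The places of Rpl5 and Rpl27 depend on the division of reads with pseudogene copies, which held 86.8% and 37.1% of the summed counts of the gene and its copies. Among the 5 highest the log2 fold change lay between 0.17 (Rpl10) and 0.37 (Rps29 and Rpl41), and among the 5 lowest between 0.31 (Rpl7l1) and 0.62 (Rpl35). Across the 81 genes, which are not independent and share the same libraries, the log2 fold change had a Pearson r of -0.30 and a Spearman rho of -0.34 with the WT level per kilobase, and -0.01 and -0.04 with the coding length.

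Many members have processed pseudogenes with nearly the same sequence. Transcripts of 1116 annotated pseudogenes matched 81 of the 84 coding members at 90% identity or more over at least 70% of their length, and 229 of them had a mean of at least 1 count. They held 6.68% of the counts of the coding members and their matches together, and over 10% for 14 members. Rpl5 was the extreme, with most of the counts of its matches in Gm15500, which is identical to it over 1018 aligned bases. Gm15500 stood at 245, 322 and 335 CPM in KO 1, 2 and 3 and at 219, 229 and 198 CPM in WT 1, 2 and 3, far above Rpl5 itself, and the level of Rpl5 depends on how the counting program divided these reads. Its log2 fold change was 0.48 (SE 0.18, adjusted p = 0.147), against 0.51 for Rpl5. For Rpl12 the matches held 52.3% of the sum, mainly Gm10275, identical over 634 aligned bases (log2 fold change 0.74, adjusted p = 0.0767). An annotated gene on the other strand overlapped 25 members, Rpl5, Rpl10a and Rpl35a among them, so part of their counts may belong to that gene. Adding the matched pseudogene counts to each member left 2 of 86 members called higher, where 2.15% of all genes were, and a median log2 fold change of 0.42.

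Within single libraries most members had values close to those of the family. Relative to the WT mean, the median log2 ratio over the coding members was 0.25 in KO 1, 0.51 in KO 2 and 0.49 in KO 3, and it lay between -0.01 and 0.02 in the WT libraries. KO 1 lay above WT by a smaller amount than KO 2 and KO 3. Of the 86 tested members, 72 had KO 1 below both other KO libraries and above every WT library, an order found in 12.1% of all genes tested.

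**Figure D3:**
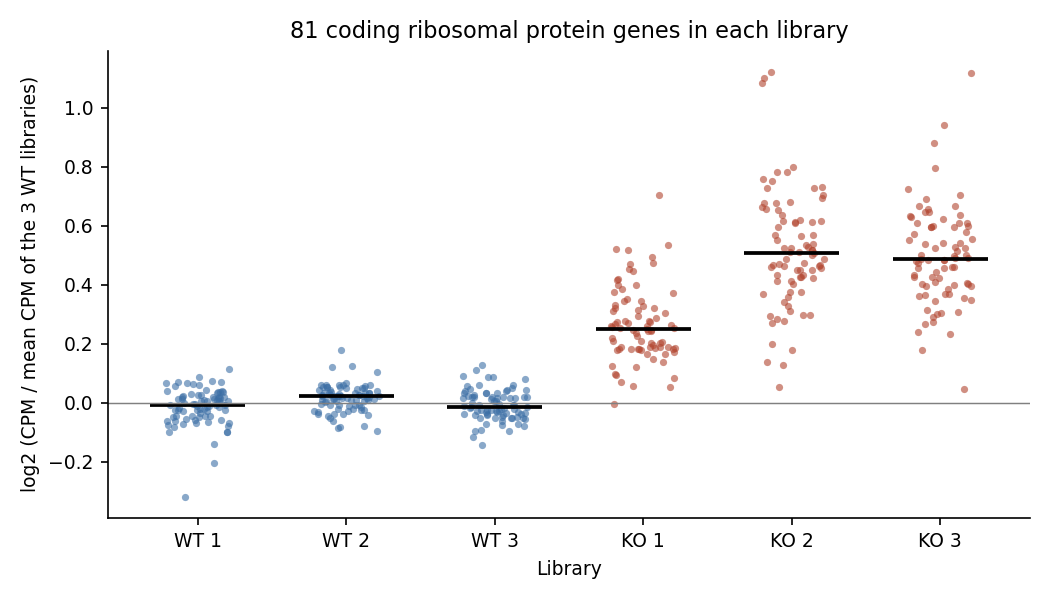
Log2 ratio of each of 81 coding ribosomal protein genes to its mean CPM over the 3 WT libraries (vertical axis), by library, with 1 point per gene and a line at the median. The medians lie at 0.25, 0.51 and 0.49 in KO 1, 2 and 3, and near 0 in the WT libraries.

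The spread between mice was small for these genes. The coefficient of variation over the 3 WT mice had a median of 3.58% for the coding members and 12.01% for all genes tested, and over the 3 KO mice 10.5% and 21.1%. This measure also depends on the level: the coding members had 921 to 34395 counts per library, and genes of like level were not compared. As a description over 6 libraries that share their groups, the correlation of a member's level with the mean profile of the coding members had a median of 0.98. It exceeded 0.9 in 75 of 81 genes, and the lowest values were those of Rpl35a and Rpl22 (0.71 each) and Rpl10 (0.75). Those 3 genes were nearly level between the groups. The profile holds the difference between the groups, so these correlations partly restate the log2 fold changes.

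The ratio of KO to WT was smaller in replicate 1 than in the other replicates for most members, but the difference passed the adjusted threshold for none of the 86 by edgeR. Between KO 1 and WT 1, which have 1 library each and so no replicate check, the log2 ratio was above 0 in all 81 coding members, with a median of 0.27. In replicates 2 and 3 its median was 0.48, and it was larger than in replicate 1 for 71 of the 81 genes. Of the 86 tested members, 84 were higher in KO 1 than in WT 1, as were 47.9% of all genes tested, and 83 were higher in both KO 2 and KO 3 than in WT 2 and WT 3, as were 36% of all genes. The exceptions in replicate 1 were Rps12l1 and Rps3a2. The interaction of group and replicate 1 passed the adjusted threshold in 0 of 86 members by edgeR's quasi-likelihood test, where 2.9% of all genes passed, and at an unadjusted p below 0.05 in 2 members, Rpl36 and Rps12l1, where 20.9% of all genes did.

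With replicates 2 and 3 alone, 55 members were called higher and 0 lower, where 17.2% and 16.1% of all genes were called. Leaving out KO 1 alone gave 64 members called higher, where 16% of all genes were. Leaving out any 1 of the other 5 libraries gave 0, where 0.0334% to 1.02% of all genes were called higher. The median log2 fold change lay between 0.38 and 0.49 in these 6 fits, while the number of calls went from 0 to 64.

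**Figure D4:**
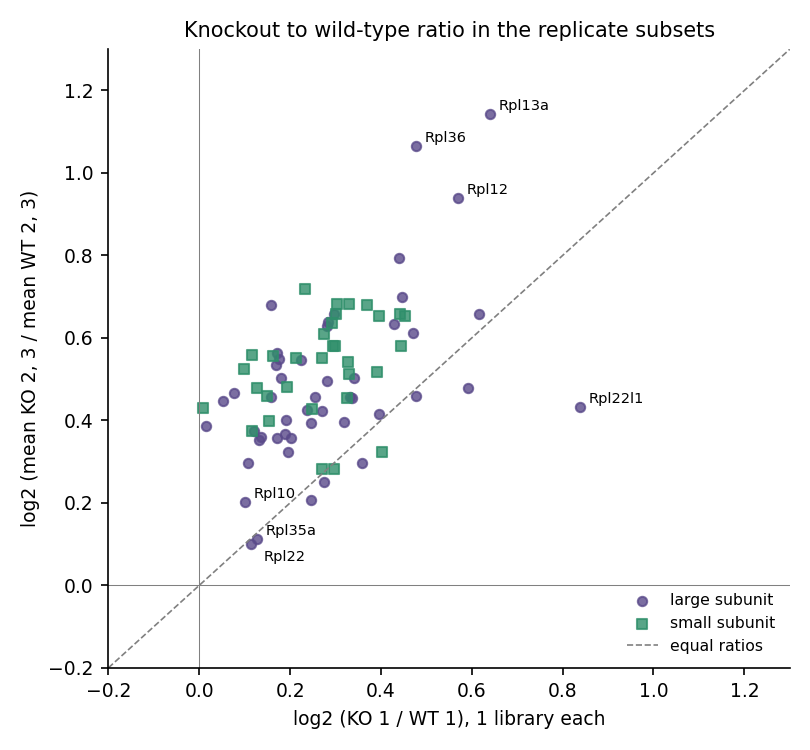
Log2 ratio of KO to WT in replicates 2 and 3 (vertical axis) against that in replicate 1 (horizontal axis, 1 library per group) for 81 coding members, 1 point each, with a dashed line where both are equal. The points lie above 0 on both axes, 71 of them above the line, and Rpl22l1 lies farthest below it.

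The members were also compared with the family's own total. With each library scaled to the summed counts of the members, the members' median was 0.00, and 2 members were called higher, where 2.45% of all genes were, and 1 lower, where 18.5% of all genes were. Rpl13a (log2 fold change 0.56, SE 0.13, adjusted p = 0.0321) and Rpl36 (0.46, SE 0.12, adjusted p = 0.0437) rose relative to the rest of the family, and Rps12l1 fell by 1.43 (SE 0.38, adjusted p = 0.0428). Rpl22 (-0.30, adjusted p = 0.102) and Rpl35a (-0.29, adjusted p = 0.107) lay lowest among coding genes on this scale without passing. Since Rpl13a and Rpl36 were also the members called on the ordinary scale from the same libraries, this is no independent evidence for them.

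The start regions of the genes were examined for the TOP motif. RefSeq promoter windows of GRCm38.p6, which run from 250 bases before to 50 after a start, were found for 64 of the 84 coding members (76 windows). A run of at least 8 pyrimidines within 15 bases of the start was present in 28 of the members' windows (36.8%) and in 3943 of all 32851 windows. The stricter form, a C at the start itself followed by 4 pyrimidines, was present in 13 of the members' windows (17.1%) and in 2.51% of all. The stretches of 30 bases around the start are shown for the members at the top of the order (Rpl13a, Rpl12 and Rpl10a, the 3 largest changes among coding members with a window), at its bottom (Rpl22, Rpl35a, Rpl10) and for Rps6, with the longest pyrimidine run in capitals. Where a gene had several starts, the one with the longest run is shown.
Rpl13a (chr7:45128731-45128760, minus strand): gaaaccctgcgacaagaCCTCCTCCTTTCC
Rpl12 (chr2:32961697-32961726, plus strand): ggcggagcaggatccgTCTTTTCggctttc
Rpl10a (chr17:28328456-28328485, plus strand): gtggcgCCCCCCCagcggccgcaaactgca
Rpl22 (chr4:152324421-152324450, plus strand): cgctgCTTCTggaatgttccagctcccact
Rpl35a (chr16:33056467-33056496, plus strand): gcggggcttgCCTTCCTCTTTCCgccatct
Rpl10 (chrX:74270801-74270830, plus strand): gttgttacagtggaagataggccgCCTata
Rps6 (chr4:86857353-86857382, minus strand): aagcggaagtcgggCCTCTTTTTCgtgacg

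At these annotated starts, the run lengths of the genes shown did not follow the order of the log2 fold changes. A part of the TOP motif in the shift was not tested. Rpl35a, with the second smallest log2 fold change, had a run of 13 pyrimidines. Rpl13a, with the largest, had 13 up to the last base shown, so its full run may be longer. Of the starts shown, those of Rpl35a and Rps6 had a C followed by 4 pyrimidines, and the others did not. The longest run was 7 in Rpl12 and Rpl10a, 5 in Rpl22 and 3 in Rpl10. Among tested coding members, the median log2 fold change was 0.37 in the 27 with a run of at least 8, 0.42 in the 34 with a window but no such run, and 0.44 in the 20 without a window. The other motifs, searched on both strands over the whole window, were also more frequent than in all windows, apart from the TATA box. CCGGAA, the core bound by ETS factors such as GABP, was in 47.4% of the members' windows and 14.9% of all, and AAGATGG, the core bound by YY1, in 15.8% and 6.34%. CACGTG, the E-box, was in 10.5% and 7.15%, TGACGT in 17.1% and 7.51%, and TATAAA in 9.21% and 13.6%. A match is a description of the letters, and the median log2 fold change was 0.38 in the 34 tested coding members with CCGGAA outside chromosome 18.

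Many ribosomal protein genes carry small nucleolar RNA genes in their introns. In the annotation 30 members held 58 such genes. All 30 were tested and had KO above WT without overlap, as had 49 of the other 51 tested coding members and 16.9% of all genes. The median log2 fold change was 0.45 in the 30 hosts and 0.39 in the other 51. Of 14 tested non-coding or other host genes outside the family, such as Gas5 and Zfas1, 0 were called, and the median was 0.63. At an unadjusted p below 0.05, 7 of the 14 were higher in KO, where 14.6% of all genes were. The largest of these, Snhg15, stood at 1.66, 3.82 and 1.89 CPM in KO 1, 2 and 3 and at 0.631, 0.926 and 0.620 CPM in WT 1, 2 and 3 (log2 fold change 1.76, SE 0.41, adjusted p = 0.0647).

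Fau and Rack1, ribosomal components whose symbols fall outside the rule, had values in the members' range. Fau, which encodes a small-subunit protein, stood at 148, 249 and 249.6 CPM in KO 1, 2 and 3 and at 131, 121 and 113 CPM in WT 1, 2 and 3 (log2 fold change 0.82, SE 0.23, adjusted p = 0.0866). Rack1, a scaffold on the small subunit, was at 0.48 (SE 0.16, adjusted p = 0.128). Neither passed the test, and in both the groups did not overlap.

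Assembly factors, which build the ribosome in the nucleus, had a median close to that of the members. Of 69 such genes, 0 were called in either direction, 31 had an unadjusted p below 0.05 with a higher level in KO, and the median log2 fold change was 0.47. Of all genes tested, 2.15% were called higher and 1.22% lower, and 14.6% had such an unadjusted p with a higher level. KO lay above WT without overlap in 18 of the 69, against 80 of the 86 ribosomal protein genes and 16.9% of all genes tested. Between KO 1 and WT 1 the median log2 ratio of CPM of the assembly factors was -0.01. In the edgeR fit of replicates 2 and 3 their median log2 fold change was 0.63. The ribosomal protein genes had 0.27 and 0.47 by these measures, which are not the same. The interaction with replicate 1 had an unadjusted p below 0.05 in 44 of the 69, where 20.9% of all genes did. It passed the adjusted threshold in 1, Gnl3, a nucleolar GTPase (-1.05, edgeR adjusted p = 0.0423), where 2.9% of all genes passed. Gnl3 stood at 21.4, 57.7 and 56.4 CPM in KO 1, 2 and 3 and at 18.9, 25.1 and 23.7 CPM in WT 1, 2 and 3. Nob1, which cuts the last small-subunit rRNA precursor, was at 0.97 (adjusted p = 0.0696), and Nle1, a large-subunit assembly factor, at 1.54 (adjusted p = 0.071). Of 15 tested genes of RNA polymerase I, which makes the rRNA, 0 were called, and the median was 0.39. At an unadjusted p below 0.05, 5 of the 15 were higher, where 14.6% of all genes were.

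Translation factors were closer to level. Of 37 initiation factors, 0 were called and 3 had an unadjusted p below 0.05, all higher, with a median of 0.19, and Pabpc4, a poly(A)-binding protein, had the smallest adjusted p (0.61, adjusted p = 0.0729). Of 12 elongation and termination genes, 0 were called, 3 were higher and 2 lower at an unadjusted p below 0.05, and the median was 0.16. At that p, 14.6% of all genes were higher and 11.7% lower. Eef1a1 and Eef2, whose messages are also of the TOP kind, had log2 fold changes of 0.11 (adjusted p = 0.769) and -0.04 (adjusted p = 0.909). Eif5a was at 0.83 (adjusted p = 0.0732) and Eef2k, the kinase that inhibits Eef2, at -1.40 (adjusted p = 0.0932). Of 13 tested chaperones and importers of ribosomal proteins, 0 were called, and the median was 0.24.

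Of 33 genes that regulate TOP messages and growth through mTOR and Myc, Myc was the only 1 called. Myc, a transcription factor that drives ribosome production, stood at 11.6, 41.8 and 19.9 CPM in KO 1, 2 and 3 and at 3.02, 2.04 and 2.14 CPM in WT 1, 2 and 3. It rose in KO without overlap (log2 fold change 3.35, SE 0.49, edgeR adjusted p = 0.0258). KO 1 was the lowest KO library in Myc and lay above every WT library, an order found in 12.1% of all genes tested. A link between Myc and the members' values was not tested. Leaving out KO 3, WT 1, WT 2 or WT 3 took the adjusted p of Myc to between 0.0551 and 0.153. In the other direction 8 genes of this list had an unadjusted p below 0.05, where 11.7% of all genes did, and the list's median was -0.11. Castor2, a relative of the arginine sensor Castor1, was at -1.99 (adjusted p = 0.0558), and Mtor itself at -0.35 (adjusted p = 0.105). Larp1, which binds TOP messages, was at 0.03 (adjusted p = 0.914).

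For comparison, the proteins of the mitochondrial ribosome, which translates the messages of the mitochondrial genome, had a smaller median. Of 78 such genes tested, 3 were called higher (Mrpl42, Mrps33 and Mrpl15, log2 fold changes 0.93, 0.82 and 0.69, adjusted p = 0.0448, 0.0464 and 0.0301) and 0 lower. Their median log2 fold change was 0.29, and 37 of the 78 had KO above WT without overlap. Of all genes tested, 2.15% were called higher and 16.9% had that order. Of 34 aminoacyl-tRNA synthetases, which load tRNAs with amino acids, 0 were called, and the median was 0.21. The log2 fold changes of the cytosolic ribosomal protein genes had an SD of 0.23 over all 86 tested and of 0.15 over the 81 coding ones, beside 0.25 for the mitochondrial ribosomal proteins and 0.34 for the synthetases.

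**Figure D5:**
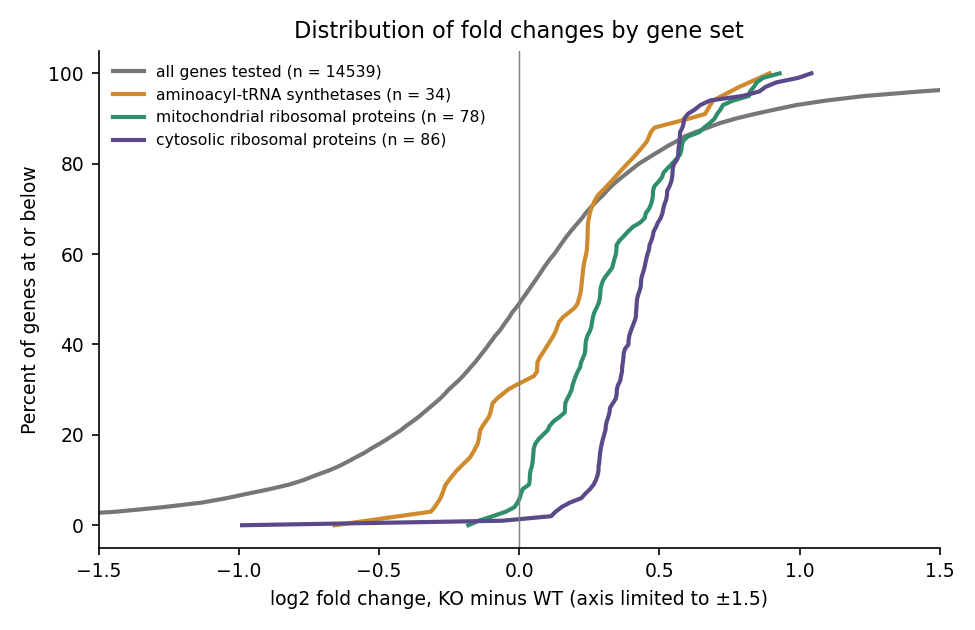
Cumulative percent of genes (vertical axis) at or below each log2 fold change (horizontal axis, limited to 1.5 on each side) for the cytosolic ribosomal protein genes, the mitochondrial ribosomal proteins, the aminoacyl-tRNA synthetases and all genes tested. The curve of the cytosolic genes is steep, with its median at 0.42, and lies to the right of the others over most of the range (medians 0.29, 0.21 and 0.01).

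Summed marker levels of other cell types were lower in KO or overlapped between the groups. The summed level of 10 endothelial markers was 118 to 191 CPM in KO and 243 to 330.2 CPM in WT, and that of 10 lymphocyte markers 1.75 to 6.93 CPM and 7.66 to 12.8 CPM, both lower in every KO library. Those of 10 Kupffer cell and macrophage markers (138 to 307 CPM in KO, 199 to 276 CPM in WT), 8 stellate markers (173 to 313 and 249 to 521 CPM) and 7 bile duct markers (25.01 to 74.9 and 39.7 to 73.3 CPM) overlapped between the groups, as did those of 6 neutrophil markers (1.13 to 2.09 and 0.789 to 1.16 CPM) and 6 erythroid markers (42.1 to 256 and 188 to 432 CPM). The neutrophil marker Ly6g was at 0 in all libraries. The summed level of 8 proliferation genes was 64.2 CPM in KO 1, 12.1 in KO 2 and 7.81 in KO 3. In WT it was 8.12 to 12.3 CPM, and the groups overlapped. The part of these levels in the members' values was not tested.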

How the data were processed

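The authors deposited 1 table of expected counts (RSEM's estimated reads per gene, not whole numbers) for 55450 genes in 6 libraries. The submitters' processing notes name bcl2fastq 2.17, cutadapt 1.18, STAR 2.7.0f, RSEM 1.3.1 and the build mm9. All 55450 identifiers and symbols were, however, found in GENCODE M21 (GRCm38), from which positions and gene types were taken. The use of strand is not given in the sources used here. Per the labels' protocols, poly(A) RNA from frozen left lobes was prepared with a TruSeq kit and sequenced as 1 pool of paired reads.

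Expected counts were rounded, filtered with filterByExpr and scaled with edgeR's TMM factors. KO and WT were compared with edgeR 4.0.16 (quasi-likelihood test, group only, R 4.3.3), with Benjamini-Hochberg adjustment over 14539 genes and a threshold of 0.05. CPM use TMM-scaled library sizes. The SE is the log2 fold change divided by the square root of F. Alternatives included DESeq2 1.42.0 and limma 3.58.1. Pseudogenes were matched with blastn 2.17.0. The scripts were tested on simulated counts. The mice are separate animals, and the tests take the mouse as the unit within this pool. The spread of each gene was estimated partly from all genes, so a p-value does not measure that gene's own spread alone. In the fit with the group alone, any difference of replicate 1 from the others of its group counts as spread.

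The members and gene lists were chosen with earlier results of these data known. Genes named were those called, the 5 largest and 5 smallest changes, the 5 highest and 5 lowest levels per kilobase, fixed members and pairs of relatives, and the list members called or with small adjusted p; Rpl32, Rpl10a and Rps12 and the other list genes named were chosen after their values were seen. Some genes of these lists are not reported here. Replicate numbers were not used to pair mice.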

Additional observations from a re-analysis of the deposited data

How the results depend on the processing

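Under every scaling, filter, tool and left-out library tried, the median log2 fold change of the members stayed between 0.38 and 0.49, except with libraries scaled to the summed members (0.003187; 1 member then called lower). The members' share of counts in KO exceeded that in WT by 0.43 percentage points (0.33 to 0.50 with 1 library left out). The calls were less stable. The 490 genes called became 771 without a filter on low counts, 2290 with DESeq2, 1504 with replicate 1 as a term, 4847 in replicates 2 and 3 alone, and 6 to 4473 with 1 library left out (4473 without KO 1, 86 without KO 2, 35 without KO 3, 262 without WT 1, 6 without WT 2, 20 without WT 3). The 2 members called higher became 4 with library totals, 41 with DESeq2, 16 with replicate 1 as a term, 55 in replicates 2 and 3 alone, and 0 to 64 with 1 library left out (64 without KO 1, 0 without each other library). With the replicate number as a block, 105 genes and 0 members were called, and Rpl13a and Rpl36 had adjusted p of 0.0896 and 0.09. The numbers did not pair the mice (correlations of deviations 0.149, 0.0213 and 0.0717; 2 of 6 libraries correlated best with their own number). Library totals moved the split of calls from 313 higher and 177 lower to 380 and 131, and DESeq2 to 1271 and 1019. The interaction with replicate 1, passed by 0 members, was passed by 1 without a filter (Rps12l1, -1.60, adjusted p = 0.00946). Scaled to the summed members, the sign turned for 39 of the 85 members above 0, among them the 14 named ones Rpl22 (-0.30), Rpl35a (-0.29), Rps3a2 (-0.29), Rpl10 (-0.24), Rplp1 (-0.16), Rpl7 (-0.13), Rps27 (-0.12), Rps4x (-0.12), Rps6 (-0.12), Rpl7l1 (-0.10), Rpl36al (-0.10), Rps2 (-0.05955), Rpl41 (-0.04983) and Rps29 (-0.04435). Rps3a2 ranged from -0.04912 (without KO 2) to 0.3133 (without KO 1) with 1 library left out. The scale to the summed members and the added pseudogene counts were chosen after seeing the data; by its construction the former centres the members at 0. The cause of the other changes was not tested. Coding members had 921 to 34395 counts per library, and the 4 untested members had too few for a test.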
